A study of Homo sapiens with 12 samples.

Results

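Of the 56269 rows in the count table of HEYA8 cells, 44 were genes of collagen alpha chains, chosen by symbol alone (COL, a number, A and a number), so that processing enzymes and antisense genes were left out. HEYA8 is an established ovarian cancer cell line. RNA was sequenced from 12 libraries in 4 groups of 3, all from HEYA8 cells carrying a lentiviral dTomato construct and sorted on dTomato, kept in RPMI-1640 with 10% FBS without added ligand. The groups were the empty vector (control vector), betaglycan with both attachment serines changed to alanine (∆GAG-BG, no glycosaminoglycan chain), S534A (CS-BG) and S545A (HS-BG), which each keep 1 attachment site. CS stands for chondroitin sulfate and HS for heparan sulfate. In the paper, enzyme digestion found both kinds of chain on S534A, while heparinase III removed all chains from S545A. Each construct was read in 1 sorted population, and nothing in the labels says that the 3 libraries of a group came from separate cultures, so every p-value measures only the spread between these libraries, which may be technical. The third S545A library has a title with S545S, but its genotype label is S545A, which was followed here. The comparisons ask whether the chain genes differed with betaglycan and with the glycosaminoglycan chain that it can carry.

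Collagens are matrix proteins built from 3 alpha chains wound into a triple helix. Fibrillar collagens form the fibres of connective tissue, type IV collagens form the network of basement membranes, type VI collagens form beaded filaments, and the other classes cap, anchor or cross membranes. Carcinoma cells make basement membrane and other pericellular collagens themselves, whereas most of the type I and type III collagen of a tumour is known to come from fibroblasts. Betaglycan binds TGF-β, a cytokine known for raising collagen synthesis in many cells.

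Before the chain genes were compared, TGFBR3, which encodes betaglycan, was read as a check of the labels. Its level was 15.9, 259 and 259 CPM (read counts scaled to library size, with TMM factors for library composition) in replicates 1, 2 and 3 labelled control vector and 260, 20.3 and 21.4 in those labelled ∆GAG-BG. It was 413 to 476 in the S534A libraries and 520 to 574 in the S545A libraries. Replicates 2 and 3 labelled control vector and ∆GAG-BG thus went against their labels, and every direction given against either of these groups is by label only. The chain gene fold changes at an unadjusted p under 0.05 were also computed without these 4 libraries, save those of COL3A1, and the other values were not. Total counts ranged from 16410001 to 29504297 per library. Replicates 2 and 3 were close to each other in control vector, ∆GAG-BG and S545A (chi-square of 1.4 to 1.95 per degree of freedom), while the other pairs of a group were at 16.5 to 74.8. Of the ovarian carcinoma and epithelium markers, PAX8 was at 193 to 295 CPM, EPCAM at 0.367 to 1.77 CPM, and MUC16 and CDH1 were at 0 counts. The keratin genes of that list were high, with group means of 908 to 1021 CPM for KRT7, 856 to 918 CPM for KRT8 and 556 to 633 CPM for KRT18. WT1 had group means of 4.56 to 6.63 CPM. Of the fibroblast markers, DCN and LUM were at 0 counts in every library, and FAP was at 20 to 28.5 and PDGFRB at 0.701 to 5.04 CPM. The endothelial gene CDH5 was at 168 to 431 CPM, while PECAM1 did not exceed 0.768 CPM. In bulk RNA, fewer cells of a type and less RNA per cell cannot be told apart.

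HEYA8 cells expressed few of the collagen chain genes strongly. By mean level over the 12 libraries, 4 chain genes were at 100 CPM or more, 10 lay between 10 and 100 CPM, and 11 were lower but had enough counts to be tested. A further 16 had some counts, never more than 10 in a library, and 3 (COL9A1, COL26A1 and COL22A1) had 0 counts in every library, which allows up to 0.1 to 0.182 CPM, depending on the library's depth. The 25 chain genes with enough counts were tested together with all other such genes, 16069 in all, and the other 19 were not tested. COL4A2 and COL4A1, the chains of the common basement membrane collagen, and COL6A2, a chain of beaded filaments, together held 60.7% to 67.3% of the summed CPM of all chain genes in 11 libraries and 70.9% in S534A replicate 2.

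Levels of different genes were compared per gene length, as CPM divided by gene length in kilobases (RPKM). COL4A2 had the highest mean, 55.5 RPKM (rank 676 of the genes tested), followed by COL6A2 at 44.5 and COL4A1 at 41.6 RPKM. COL6A1 was at 15.8 and COL18A1, whose C-terminal fragment is endostatin, at 10.9 RPKM. COL5A2, COL27A1 and COL12A1 lay next to each other at 8.52, 7.73 and 7.38 RPKM, and their ranges over the libraries overlapped. The chains of the tissue's bulk fibres were low by comparison: COL1A1 was at 1.14 RPKM and COL3A1 at 0.0346 RPKM.

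**Figure D1:**
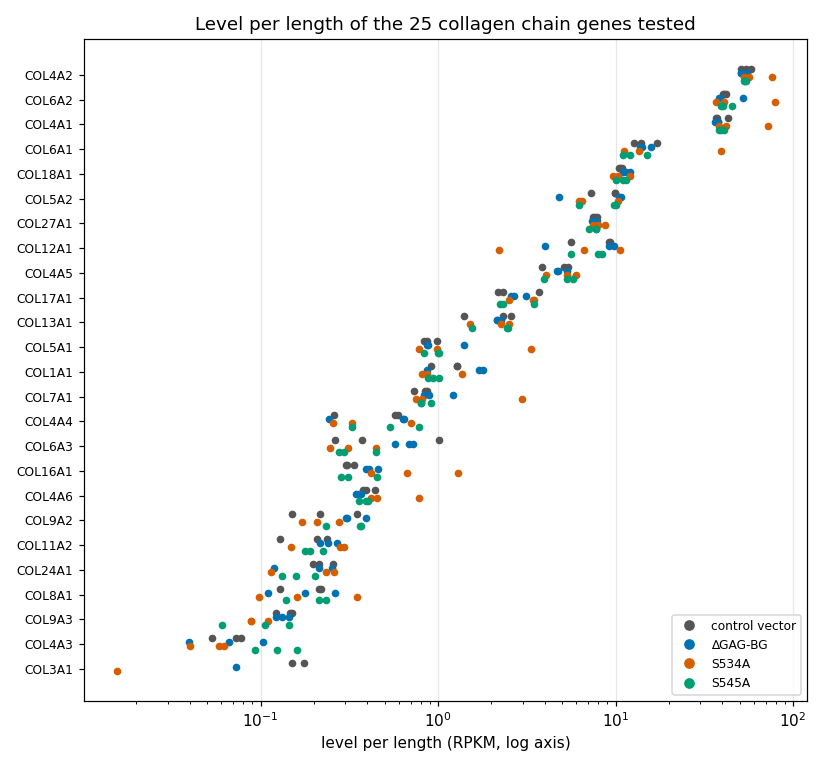
Level per length (RPKM, log axis) of the 25 chain genes tested, 1 point per library, coloured by group, with libraries at 0 not drawn. COL4A2, COL6A2 and COL4A1 stand above all other chain genes at means of 41.6 to 55.5 RPKM, and COL3A1 is the lowest at 0.0346 RPKM.

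Chains that assemble together were not expressed in proportion. COL1A1 had 3175 counts over the 12 libraries, whereas COL1A2, its partner in the usual type I collagen, had 7. COL6A3, the largest chain of the usual type VI collagen, was at a median of 0.00823 of the RPKM of COL6A2, with a range of 0.00566 to 0.0248. COL5A1 stood at a median of 0.102 of its type V partner COL5A2. For the type IV pairs, the median ratio per length was 0.729 for COL4A1 over COL4A2, 0.163 for COL4A3 over COL4A4 and 0.0769 for COL4A6 over COL4A5. The COL4A1 to COL4A2 ratio varied least of these pairs, from 0.686 to 0.757 in 11 libraries and at 0.939 in S534A replicate 2. COL4A1 had 101300 counts over the 12 libraries, against 211 for COL4A3 and 1173 for COL4A6. Counting error is therefore larger in the other pairs, and the ranges do not compare how closely the pairs go together. Of the type IX chains, COL9A1 had no counts, and COL9A2 and COL9A3 averaged 0.278 and 0.118 RPKM.

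The 6 type IV genes lie in 3 head-to-head pairs, each read in opposite directions from a shared stretch of DNA. In the table COL4A1 lies on chromosome 13 from 110148963 to 110307149 (minus strand) and COL4A2 from 110305812 to 110513027 (plus strand). RefSeq puts their starts 127 bases apart, against 419 bases for COL4A4 and COL4A3 on chromosome 2 and 380 for COL4A6 and COL4A5 on chromosome X, where COL4A6 has a second start 1416 bases away. The 300-base windows around the starts of the plus-strand genes (RefSeq, GRCh38.p14) are shown, and those of their minus-strand partners are not. Whether the letters of these windows bear on the chain ratios given above was not tested. Each is written 5′ to 3′ on the plus strand, and capitals mark matches to GC boxes (GGGCGG) or CCAAT boxes (CCAAT) on either strand.
COL4A2, chr13:110307034-110307333, plus strand: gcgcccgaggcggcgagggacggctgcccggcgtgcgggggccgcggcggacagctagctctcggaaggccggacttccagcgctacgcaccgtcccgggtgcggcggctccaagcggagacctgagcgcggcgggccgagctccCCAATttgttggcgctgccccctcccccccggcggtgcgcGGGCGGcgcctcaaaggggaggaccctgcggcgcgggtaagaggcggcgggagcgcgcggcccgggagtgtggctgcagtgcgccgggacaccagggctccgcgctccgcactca
COL4A3, chr2:227164374-227164673, plus strand: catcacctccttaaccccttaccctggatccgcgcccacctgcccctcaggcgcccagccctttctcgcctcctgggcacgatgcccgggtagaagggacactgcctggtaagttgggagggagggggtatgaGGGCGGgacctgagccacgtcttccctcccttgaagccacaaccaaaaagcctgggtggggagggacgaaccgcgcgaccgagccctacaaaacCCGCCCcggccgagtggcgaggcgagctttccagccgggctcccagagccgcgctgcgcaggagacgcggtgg
COL4A5, chrX:108439588-108439887, plus strand: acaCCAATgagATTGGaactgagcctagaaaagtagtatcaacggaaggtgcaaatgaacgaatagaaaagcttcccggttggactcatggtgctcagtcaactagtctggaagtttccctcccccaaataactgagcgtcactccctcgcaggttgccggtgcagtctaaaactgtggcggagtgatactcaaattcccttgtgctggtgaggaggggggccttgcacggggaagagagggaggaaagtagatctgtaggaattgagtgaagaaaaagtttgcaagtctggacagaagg
The COL4A2 window holds 1 GC box and 1 CCAAT box and spans the start of COL4A1, the COL4A3 window holds 2 GC boxes, and the COL4A5 window holds 2 CCAAT boxes. No matches overlapped each other, and none of the 3 windows holds TATAAA. The GC content of the window was 77.7% for COL4A2, 67.7% for COL4A3 and 49.3% for COL4A5.

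Promoter windows were found for 32 of the 44 chain genes, some with several starts. Of their 44 windows, 24 held a GC box, 14 a CCAAT box and 8 TATAAA. Over all 35116 windows of that length, 45.0% held a GC box, 34.6% a CCAAT box and 11.5% TATAAA. A match describes the letters only.

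The summed level of the 44 chain genes was nearly level across 11 libraries and stood apart in 1. It ranged from 1542 to 1614 CPM in the former and reached 2366 CPM in S534A replicate 2, where chain genes took 0.2403% of all counts against 0.1538% to 0.1597% elsewhere. Type IV genes summed to 1316 CPM in that library against 792 to 897 CPM in the others, and the type VI and VII genes to 674 against 271 to 393 CPM. The FACIT genes, whose products sit on the surface of fibrils, summed to 40.9 CPM there against 56.5 to 141 CPM, with COL12A1 low at 27.4 CPM and COL16A1, of the same class, at its highest, 11.9 CPM. Fibrillar genes summed to 214 CPM, within the 172 to 216 CPM of the other libraries.

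**Figure D2:**
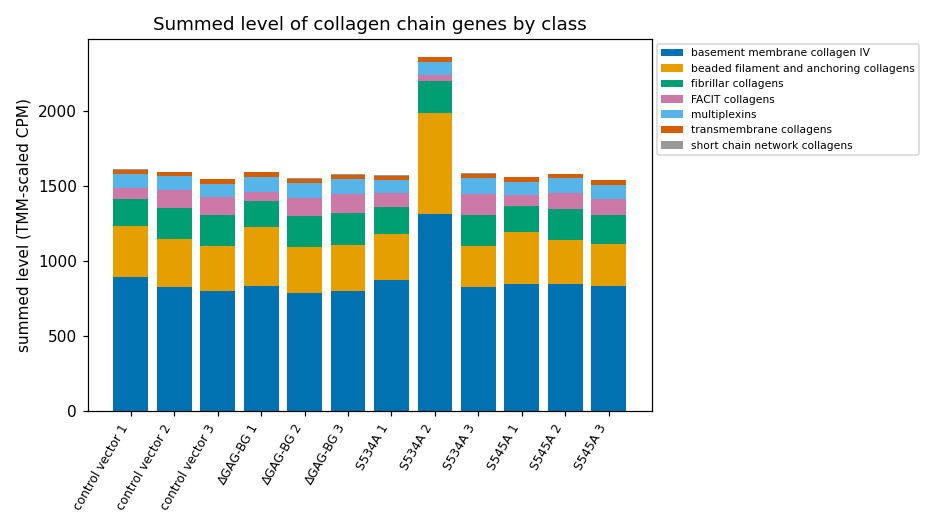
Summed level of the collagen chain genes (TMM-scaled CPM) in each library, stacked by class. Bars of 11 libraries reach 1542 to 1614 CPM and that of S534A replicate 2 reaches 2366 CPM, with a type IV segment of 1316 CPM.

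S534A replicate 2 was the highest library for 10 of the 25 chain genes tested (40.0%, against 26.1% of all genes tested) and the lowest for 4 (16%, against 25.4%). Against the median of the other 11 libraries, COL5A1 stood at 3.81 times, COL7A1, the anchoring fibril chain, at 3.58 times, COL16A1 at 3.30 times and COL6A1 at 2.84 times. COL4A6, COL6A2 and COL4A1 stood at 2.00, 1.94 and 1.88 times. Below that median were COL12A1, a FACIT chain, at 0.261 times, COL4A4 at 0.450 times and COL24A1 at 0.542 times, and of these COL12A1 and COL24A1 were at their lowest in this library. The same library had the lowest summed level of the ovarian carcinoma and epithelium markers (2326 against 2349 to 2950 CPM) and of the endothelial markers (171 against 296 to 445 CPM), and its HSPA5, an endoplasmic reticulum chaperone, was at 287 against 1228 to 11864 CPM. Their part in the result was not tested.

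**Figure D3:**
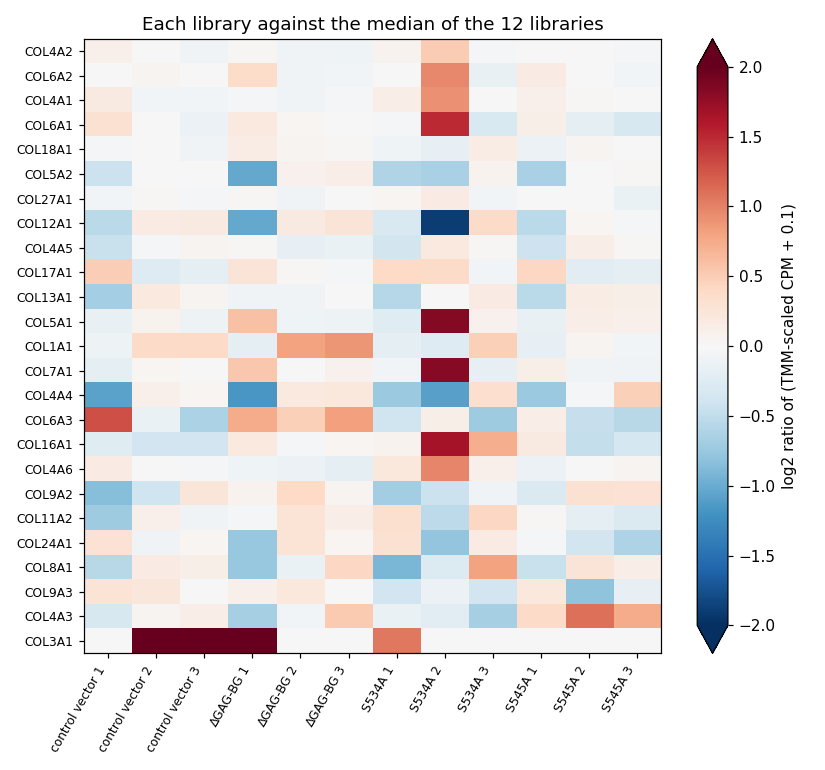
Colour gives the log2 ratio of each library to the median of all 12, on TMM-scaled CPM with 0.1 added, for the 25 chain genes tested, ordered by RPKM. S534A replicate 2 is the column with the most strong colours, red for COL5A1, COL7A1, COL16A1 and COL6A1 and blue for COL12A1, and COL3A1 is coloured in 4 columns because its median is 0.

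Over the 12 libraries, the chain genes tested spanned a median range of 0.98 on the log2 scale, against 0.55 for all genes tested. Part of that range ran between libraries of 1 group. Replicate 1 was lower than replicates 2 and 3 in each of control vector, ∆GAG-BG and S545A for COL12A1, COL1A1, COL4A3, COL4A4, COL5A2 and COL8A1, that is 6 of 25 (24%, against 11.9% of all genes). It was higher for COL16A1, COL17A1, COL4A1, COL4A2 and COL6A1, 5 of 25 (20.0%, against 10.2%). With S534A included, the order held for COL8A1 (lower) and COL17A1 (higher), and the labels give the replicate numbers no batch or day.

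No collagen chain gene passed an adjusted p of 0.05 in any of the 6 comparisons between groups or in the test of any difference among the 4 groups. This held for edgeR's quasi-likelihood test with Benjamini-Hochberg adjustment over the 16069 genes, for DESeq2 and for limma-voom. Over all genes, edgeR called 0% at an adjusted p of 0.05 in each of the 6 comparisons and 1 gene (0.00622%) in the test among 4 groups. The values below therefore describe chain genes at an unadjusted p under 0.05, read beside the share of all genes that reached it. An exact permutation test of 3 libraries against 3 cannot go below 0.1.

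For ∆GAG-BG relative to control vector, 0 of the 25 chain genes reached an unadjusted p of 0.05, and 0.871% of all genes did. The 3 libraries of each label did not overlap for 3 chain genes (4.87% of all genes), COL16A1 and COL18A1 higher and COL4A6 lower in ∆GAG-BG. COL18A1 was at 90.5, 92.4 and 88.9 CPM under control vector and 103, 97.1 and 94.3 CPM under ∆GAG-BG, a log2 fold change of 0.11 (SE 0.090, unadjusted p = 0.229, edgeR). Its exons overlap those of SLC19A1 on the other strand by 1401 bases, and whether the counting used strand is not given in the sources used here. The median log2 fold change of the 25 chain genes was 0.03, against 0.00298 for all genes.

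In S534A against control vector, 2 of 25 chain genes reached an unadjusted p of 0.05, COL16A1 higher and COL3A1 lower, where 3.45% of all genes did. COL3A1 was tested only through libraries where it was high, as given below. COL16A1 encodes a FACIT chain. Its level was 3.11, 2.83 and 2.82 CPM in the control vector libraries, 4.26, 3.62 and 3.79 CPM in ∆GAG-BG, 3.91, 11.9 and 6.19 CPM in S534A and 4.23, 2.65 and 2.87 CPM in S545A. All 3 S534A libraries lay above the 3 control vector libraries, and S534A replicate 2 was the highest of the 12. The log2 fold change was 1.34 (SE 0.334, unadjusted p = 0.00177, adjusted p = 0.871, edgeR), and 0.77 without S534A replicate 2 (unadjusted p = 0.00793). Without replicates 2 and 3 of control vector and ∆GAG-BG it was 1.22 (unadjusted p = 0.0769, edgeR). For chain genes whose 3 libraries did not overlap between the labels, COL16A1 and COL9A3, the share over all genes was 7.65%.

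Between the single-site mutants, the log2 fold change of COL16A1 in S545A relative to S534A was -1.18 (SE 0.332, unadjusted p = 0.00391, adjusted p = 0.702, edgeR). S545A replicate 1, at 4.23 CPM, lay above S534A replicate 1, at 3.91 CPM, so the groups overlapped. The value was -0.61 without S534A replicate 2 (unadjusted p = 0.0249). Against ∆GAG-BG, COL16A1 was 0.92 higher in S534A on the log2 scale (SE 0.330, unadjusted p = 0.0161), and 0.36 without S534A replicate 2 (unadjusted p = 0.156). COL16A1 lies on chromosome 1 from 31652247 to 31704319 and shares 117 exon bases with RP11-73M7.6 on the other strand, which had 2 to 11 counts per library.

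COL4A3 encodes a type IV chain of specialised basement membranes, as in the kidney glomerulus, and was rare here. Its level was 0.484, 0.660 and 0.705 CPM in control vector, 0.363, 0.604 and 0.948 CPM in ∆GAG-BG, 0.569, 0.534 and 0.364 CPM in S534A, and 0.853, 1.47 and 1.13 CPM in S545A. The S545A libraries lay above all libraries of control vector and S534A, and overlapped those of ∆GAG-BG. Against S534A the log2 fold change was 1.18 (SE 0.347, unadjusted p = 0.00536, adjusted p = 0.702, edgeR). Against control vector it was 0.89 (SE 0.337, unadjusted p = 0.0213), and against ∆GAG-BG 0.83 (SE 0.341, unadjusted p = 0.0313). Against S534A the unadjusted p stayed under 0.05 in each of 16 alternatives, whereas against control vector it did not in 3 of 16: without S545A replicate 2 (0.69), without control vector replicate 1 (0.73) and with replicates 2 and 3 summed (0.85). Against ∆GAG-BG it did not in 8 of 16, among them without ∆GAG-BG replicate 1 or 2 and without S545A replicate 2 or 3 (0.55 to 0.84), and with DESeq2 (0.84). Without the 4 libraries that went against their labels, the values were 1.21 against control vector and 1.64 against ∆GAG-BG, each against 1 library, replicate 1. COL4A3 never exceeded 33 counts in a library, and AC097662.2, which shares 120 exon bases with it on the other strand, had 23 to 59.

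**Figure D4:**
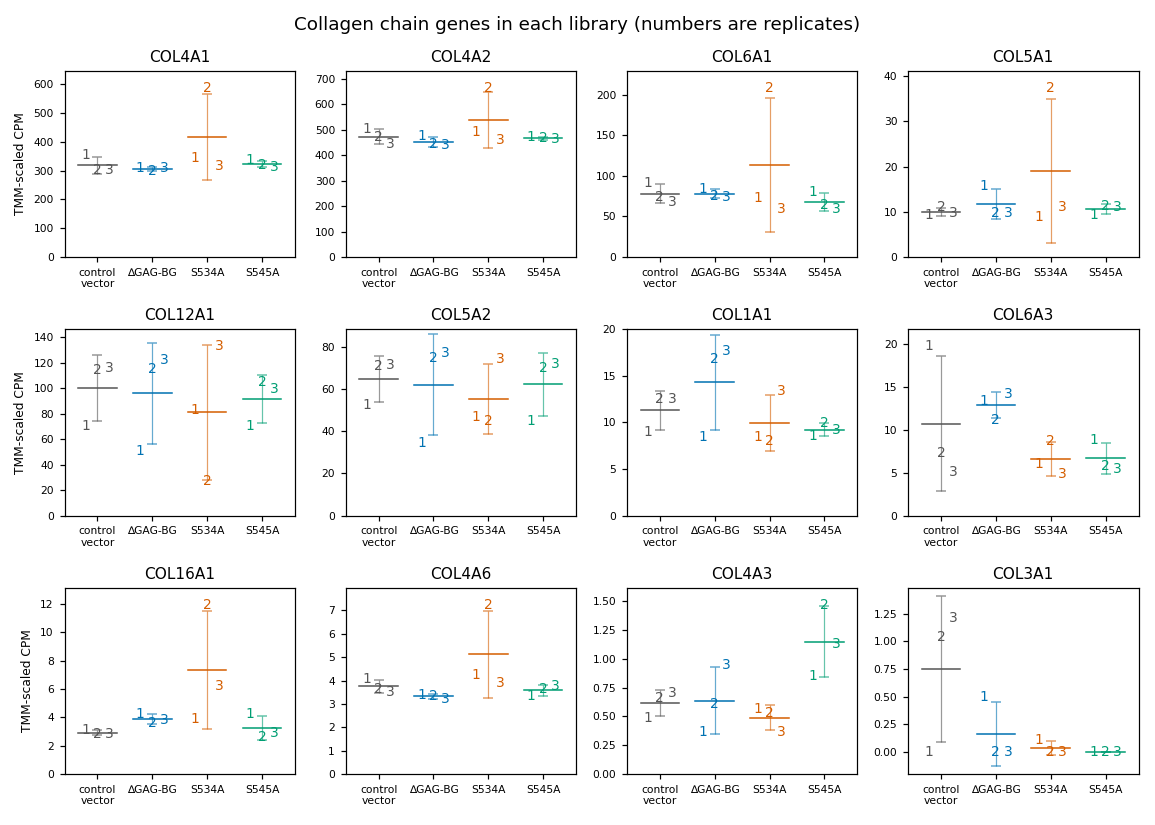
Level (TMM-scaled CPM) of 12 chain genes in each library, where the digit is the replicate number, the line the group mean and the bar its SD (n = 3). S534A replicate 2 sits highest for COL4A1, COL4A2, COL6A1, COL5A1, COL16A1 and COL4A6 and lowest for COL12A1 and COL1A1. The 3 S545A libraries sit highest for COL4A3 save for the overlap with ∆GAG-BG replicate 3.

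The neighbour of COL4A3, COL4A4, is read from the same region in the other direction. COL4A4 was at 2.56, 5.89 and 5.64 CPM in control vector, 2.4, 6.27 and 6.37 CPM in ∆GAG-BG, 3.24, 2.54 and 6.98 CPM in S534A, and 3.26, 5.34 and 7.69 CPM in S545A. The 4 groups overlapped, and replicate 1 was the lowest of each group save S534A, where replicate 2 was lower. It reached an unadjusted p of 0.05 in none of the comparisons.

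In S534A against ∆GAG-BG, 4 of 25 chain genes reached an unadjusted p of 0.05, with COL16A1, COL4A1 and COL4A6 higher and COL6A3 lower, where 2.99% of all genes did. COL4A1 was at 354, 303 and 302 CPM in control vector, 309, 297 and 309 CPM in ∆GAG-BG, 345, 588 and 315 CPM in S534A, and 336, 321 and 313 CPM in S545A. Group means were 320 ± 29.5, 305 ± 6.61, 416 ± 150 and 323 ± 12.1 CPM (SD, n = 3). S534A and ∆GAG-BG did not overlap, but S534A replicate 2 set the size: the log2 fold change was 0.45 (SE 0.185, unadjusted p = 0.0319, edgeR) with it and 0.12 (unadjusted p = 0.216) without it. COL4A2 overlapped between these groups, at 503, 470 and 444 CPM in control vector, 477, 444 and 441 CPM in ∆GAG-BG, 490, 666 and 460 CPM in S534A, and 472, 466 and 463 CPM in S545A.

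COL4A6, a chain known from smooth muscle and epithelial basement membranes, was at 4.08, 3.63 and 3.52 CPM in control vector, 3.40, 3.34 and 3.21 CPM in ∆GAG-BG, 4.23, 7.24 and 3.88 CPM in S534A, and 3.33, 3.63 and 3.76 CPM in S545A. Each S534A library lay above each ∆GAG-BG and each S545A library. The log2 fold change was 0.64 in S534A against ∆GAG-BG (SE 0.215, unadjusted p = 0.0119) and -0.53 in S545A against S534A (SE 0.213, unadjusted p = 0.0283, edgeR). Without S534A replicate 2 these were 0.30 (unadjusted p = 0.0608) and -0.19 (unadjusted p = 0.215), and the second also lost an unadjusted p under 0.05 without S545A replicate 1 (-0.48) or 2 (-0.54). In all, 4 of 16 alternatives for the first and 7 of 16 for the second gave an unadjusted p over 0.05. Its head-to-head partner COL4A5 ranged from 33.6 to 52.2 CPM with the groups overlapping.

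COL6A3 was at 19.8, 7.31 and 5.13 CPM in control vector. It was at 13.4, 11.2 and 14.2 CPM in ∆GAG-BG, 6.08, 8.74 and 4.85 CPM in S534A, and 8.80, 5.78 and 5.43 CPM in S545A. All ∆GAG-BG libraries lay above all libraries of both single-site mutants. The fitted change on the log2 scale was -0.97 in S534A (SE 0.423, unadjusted p = 0.0426, permutation p = 0.1) and -0.95 in S545A (SE 0.423, unadjusted p = 0.0446, permutation p = 0.1), both against the same ∆GAG-BG libraries. In each comparison 8 of 16 alternatives gave an unadjusted p over 0.05, among them leaving out any 1 of the ∆GAG-BG libraries (-0.90 to -1.06 in S534A and -0.88 to -1.04 in S545A). Without the 4 libraries that went against their labels, the values were -1.02 and -1.01, which rest on 1 ∆GAG-BG library, replicate 1. Over all genes, the groups did not overlap for 5.66% in the S534A comparison, where 5 chain genes did not (COL4A1, COL4A6, COL6A3, COL9A2 and COL9A3), and for 5.05% in the S545A comparison, where 2 did not (COL4A1 and COL6A3).

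The other type VI chains were far more abundant than COL6A3 per length, and their groups overlapped. COL6A1 was at 91.3, 74.1 and 68.3 CPM in control vector, 84.2, 75.6 and 73.5 CPM in ∆GAG-BG, 72.5, 209 and 59.7 CPM in S534A, and 80.3, 64.4 and 58.9 CPM in S545A. COL6A2 was at 219, 227 and 218 CPM, then 282, 207 and 209 CPM, 219, 424 and 198 CPM, and 245, 218 and 211 CPM in the same order of groups. In both, S534A replicate 2 was the highest library. COL6A1 and COL6A2 lie close together on chromosome 21, at 45981737 to 46005050 and 46098097 to 46132849, while COL6A3 lies on chromosome 2 at 237324003 to 237414375.

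In S545A against ∆GAG-BG, 3 of 25 chain genes reached an unadjusted p of 0.05, COL4A3 higher and COL1A1 and COL6A3 lower, where 1.1% of all genes did. COL1A1, the main chain of type I collagen, was at 8.93, 12.5 and 12.5 CPM in control vector, 8.48, 16.8 and 17.7 CPM in ∆GAG-BG, 8.46, 7.98 and 13.4 CPM in S534A, and 8.57, 9.95 and 9.23 CPM in S545A. The groups overlapped, and replicates 2 and 3 labelled ∆GAG-BG, both against their label, were the highest libraries. The log2 fold change of -0.63 (SE 0.270, unadjusted p = 0.0373, permutation p = 0.4) became 0.12 (unadjusted p = 0.698) without the 4 libraries that went against their labels. An unadjusted p under 0.05 was also lost without replicate 2 or 3 of ∆GAG-BG (-0.50 and -0.45) and without any 1 of the S545A libraries (-0.57 to -0.68). In S545A against control vector, 2 of 25 chain genes reached an unadjusted p of 0.05, COL4A3 higher and COL3A1 lower, where 1.05% of all genes did. COL4A3 was the only chain gene whose libraries did not overlap there, as for 8.82% of all genes.

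COL3A1, the chain of type III collagen, was read in few libraries. It had 0, 22 and 31 counts in control vector, 11, 0 and 0 in ∆GAG-BG, 3, 0 and 0 in S534A, and 0 in all 3 S545A libraries. The 3 libraries with over 10 counts, replicates 2 and 3 labelled control vector and replicate 1 labelled ∆GAG-BG, were the same 3 that had TGFBR3 at 259 to 260 CPM. COL3A1 had enough counts to be tested only through these 3 libraries, so its p-values cannot serve as support for a group difference. By label, the control vector mean of 0.750 CPM was at least 6.15-fold higher than S545A, taking 3 counts per library as the limit for S545A. That mean rests on the 2 control vector libraries that went against their label, the replicate 1 library had 0 counts, and the groups overlapped. DESeq2 and limma-voom gave unadjusted p-values of 0.117 and 0.0645 for it, against 0.0157 for edgeR. For S534A against control vector, 11 of 14 alternatives gave an unadjusted p over 0.05 for COL3A1.

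In S545A against S534A, 3 of 25 chain genes reached an unadjusted p of 0.05, COL4A3 higher and COL16A1 and COL4A6 lower, where 4.78% of all genes did. The libraries did not overlap for COL4A3 and COL4A6 (10.1% of all genes). This comparison uses no library that went against its label. In the test of any difference among the 4 groups, COL16A1 (unadjusted p = 0.00507), COL4A3 (0.0219), COL3A1 (0.0432) and COL4A6 (0.0451) reached 0.05, 4 of 25 where 1.55% of all genes did (edgeR). COL3A1 was tested only because of the libraries where it was high, so it adds no support to this count.

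**Figure D5:**
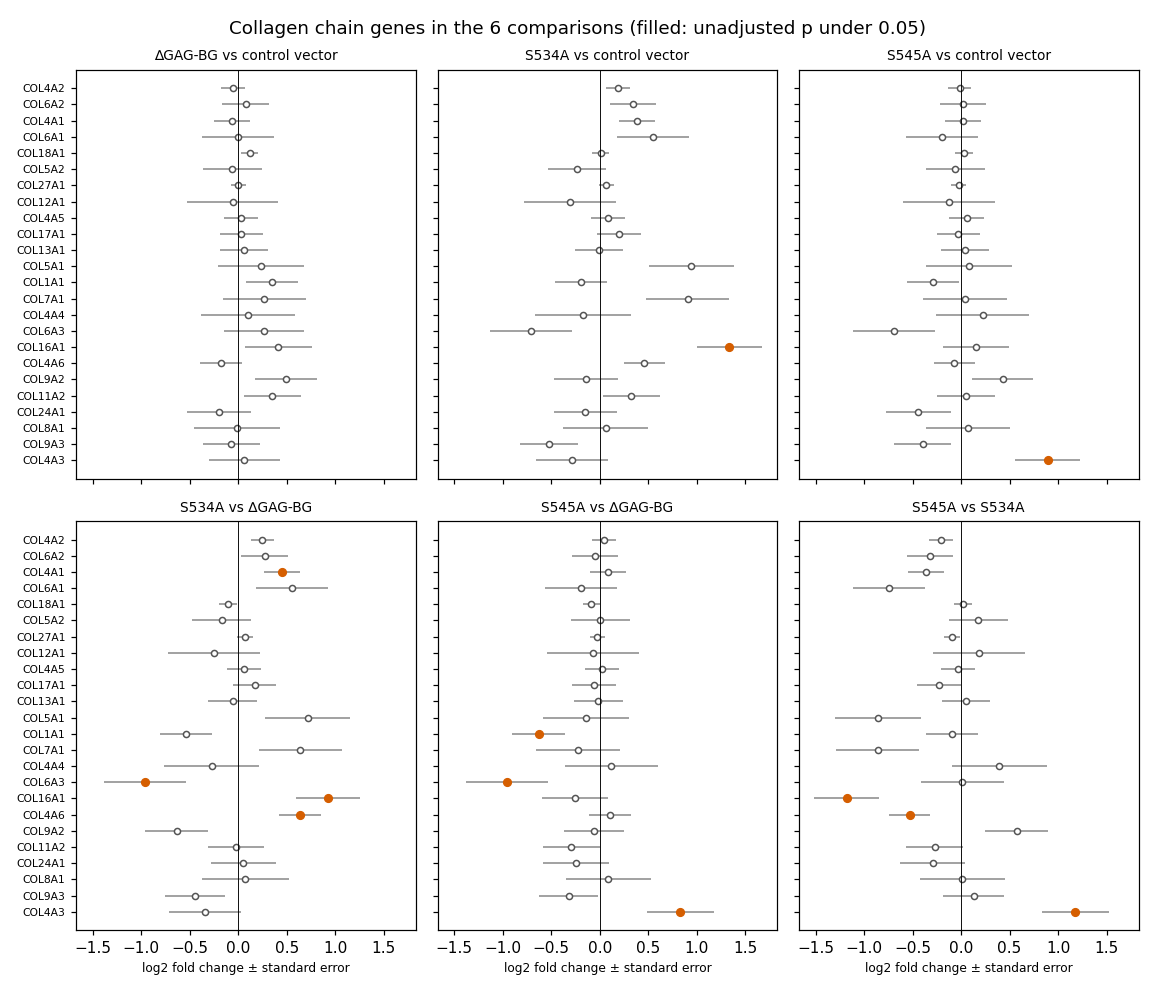
Log2 fold change with its standard error (edgeR) of 24 chain genes in the 6 comparisons, ordered by RPKM, filled where the unadjusted p was under 0.05, with COL3A1 left out because of its libraries at 0. The filled points include COL16A1 (1.34 in S534A against control vector, and -1.18 between S545A and S534A), COL4A3 (1.18 in S545A against S534A) and COL6A3 (-0.97 in S534A against ∆GAG-BG).

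Among abundant chain genes that reached no unadjusted p of 0.05, libraries of 1 group also spread widely. COL12A1 was at 70.1, 114 and 116 CPM in control vector, 50.3, 115 and 122 CPM in ∆GAG-BG, 82.5, 27.4 and 133 CPM in S534A, and 70.2, 105 and 99.4 CPM in S545A. COL5A2, a chain of type V collagen, which helps to set the width of fibrils, was at 52.2, 70.9 and 71.1 CPM, then 34.5, 74.7 and 76.8 CPM, 46.5, 44.7 and 74.1 CPM, and 44.8, 69.7 and 71.8 CPM in the same order. Replicate 1 was low in each group for COL5A2 save for S534A, where replicate 2 was as low. Its partner COL5A1 was at 9.34, 11 and 9.75 CPM, then 15.7, 9.85 and 9.71 CPM, 8.78, 37.5 and 11.1 CPM, and 9.34, 11.4 and 11.2 CPM, so that in S534A replicate 2 and ∆GAG-BG replicate 1 COL5A1 was high where COL5A2 was low. COL27A1, a fibrillar chain of cartilage, stayed within 98.9 to 121 CPM.

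COL7A1 was at 8.16 to 13.6 CPM in 11 libraries and at 33.1 CPM in S534A replicate 2. COL17A1, the transmembrane collagen of hemidesmosomes, was at 24, 14.2 and 15.0 CPM in control vector, 20.5, 17.3 and 16.8 CPM in ∆GAG-BG, 22.5, 22.3 and 16.3 CPM in S534A, and 22.6, 14.6 and 15.0 CPM in S545A, with replicate 1 the highest in each group. COL13A1, another transmembrane collagen, ranged from 8.09 to 14.8 CPM. Of the remaining chain genes tested, COL24A1, COL8A1, COL11A2, COL9A2 and COL9A3 were each at 3.28 CPM or less in every library.

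By class, the median log2 fold change of type VI and VII genes was 0.44 in S534A relative to control vector and -0.53 between S545A and S534A, where the medians of all genes were 0.00776 and -0.000242. For type IV genes these were 0.14 and -0.12, and for FACIT genes -0.23 and 0.16. In the 4 type VI and VII genes tested, none reached an unadjusted p of 0.05 in these comparisons. S534A replicate 2, the library with the high type IV and type VI sums, is part of both.

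The enzymes and chaperones that fold, modify and cut procollagen were listed as 33 genes, of which 30 were tested. None passed an adjusted p of 0.05 in any comparison (edgeR). At an unadjusted p of 0.05, 0 of 30 were reached in ∆GAG-BG and in S545A against control vector and in S534A against ∆GAG-BG, 1 (PCOLCE2, higher) in S534A against control vector, 1 (ADAMTS2, lower) in S545A against ∆GAG-BG, and 3 (P4HA1, P4HA2 and PCOLCE2, lower) in S545A against S534A. Over all genes the shares in these last 3 comparisons were 3.45%, 1.1% and 4.78%. P4HA1, a catalytic subunit of prolyl 4-hydroxylase, was at 82.4 CPM in S534A replicate 2 and 31.7 to 43.2 CPM in the others. P4HA2, its paralogue, was at 28.9 against 13.8 to 20.1 CPM, and PCOLCE2, an enhancer of procollagen C-proteinase, at 11.7 against 3.11 to 6.97 CPM. The 3 genes thus were highest in the library where the chain genes summed highest.

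SERPINH1, the collagen chaperone HSP47, was at 59.3, 106 and 110 CPM in control vector, 157, 80.9 and 76.6 CPM in ∆GAG-BG, 75.2, 109 and 97.6 CPM in S534A, and 82.0, 119 and 119 CPM in S545A. P4HB, the disulfide isomerase subunit of prolyl 4-hydroxylase, was at 721 CPM in ∆GAG-BG replicate 1 and 396 to 468 CPM in the other 11 libraries. ∆GAG-BG replicate 1 was the highest library for both and for HSPA5, at 11864 CPM against 287 to 3906 CPM elsewhere. Their part in the chain gene values of that library, where COL6A3 stood at 1.84 times and COL12A1 at 0.479 times the median of the others, was not tested.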

How the data were processed

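RNA-seq libraries of HEYA8 cells (12, in 4 groups of 3) were used. The authors deposited raw counts per gene. The submitters' processing notes name FastQC, Trim Galore 0.4.5, STAR 2.4, SAMtools 1.2 and featureCounts, and list mouse builds (mm10, GRCm38), while the table holds human genes, of which all 44 chain genes were found in GENCODE 29 (GRCh38) and 34 had the same coordinates there. The use of strand is not given in the sources used here.

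From the deposited counts, genes were filtered by edgeR's filterByExpr, scaled by TMM (factors 0.977 to 1.017) and tested by the quasi-likelihood test of edgeR 4.0.16 (R 4.3.3) in 1 model of 4 groups, with Benjamini-Hochberg adjustment. The biological coefficient of variation was 0.163. RPKM used the table's gene lengths. Limits from 3 counts cover counting error only. Alternatives were DESeq2 1.42.0, limma-voom (limma 3.58.1), other scalings, no filter, a replicate block, only the groups compared and each library left out. On simulated data for S545A against control vector (2-fold changes in 200 of 16069 genes), edgeR found 72% of these genes and made 10 false calls. The simulation gave all genes the same biological coefficient of variation and had no library that stood apart. Its 72% therefore does not give the power of the tests on the real counts.

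The model had no replicate block, which was run as an alternative in every comparison. Between S545A and control vector, the deviations of libraries with 1 number from their group means correlated at 0.732, 0.48 and 0.481, which meets the limit of 0.1 for pairs. No label states such a pairing. The chain genes and the lists (synthesis, receptors, collagenases, markers) were chosen with earlier results of these data known. Values per library are given for chain genes with a mean of 10 CPM or more, or an unadjusted p under 0.05, and for partner chains, by value or range. Of the lists, genes under an unadjusted p of 0.05 (at most 4 a comparison), SERPINH1, P4HB, TGFBR3 and HSPA5 were named. PLOD2, ITGB1, ITGA2, DDR2 and MMP14 were chosen after their values were seen.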

Additional observations from a re-analysis of the deposited data

How the results depend on the processing

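The count of chain genes under an adjusted p of 0.05 was 0 in all 117 combinations of comparison and setting. Of 220 alternative values for the 14 chain gene fold changes at an unadjusted p under 0.05, 147 kept direction and side of that threshold, 72 kept direction only, and 1 reversed: COL1A1 in S545A against ∆GAG-BG became 0.12 without replicates 2 and 3 labelled ∆GAG-BG and control vector, an alternative chosen after seeing the data (as was leaving out S534A replicate 2 with ∆GAG-BG replicate 1). It leaves 1 library in both groups, assumed to vary like the others.

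Counts at an unadjusted p of 0.05 depended on the setting. In S534A against control vector, 2 became 8 without S534A replicate 3, 5 without S534A replicate 1 or with library size only, and 1 without control vector replicate 2, with limma-voom, with only these groups, with replicates 2 and 3 summed or without the 4 libraries against their labels. In S534A against ∆GAG-BG, 4 became 10 without S534A replicate 3, 2 without ∆GAG-BG replicate 2 or 3, 1 without S534A replicate 2 (alone or with ∆GAG-BG replicate 1) or without the 4 libraries, and 0 with replicates 2 and 3 summed. In S545A against S534A, 3 became 9 without S534A replicate 3, 7 without S534A replicate 1 and 6 with DESeq2. In S545A against ∆GAG-BG, 3 became 1 without ∆GAG-BG replicate 1 or 3, and 0 without ∆GAG-BG replicate 2, without S545A replicate 2 or 3, or with replicates 2 and 3 summed. In S545A against control vector, 2 became 4 without control vector replicate 3, and 1 with DESeq2, limma-voom, only these groups or summed replicates, and without control vector replicate 1 or S545A replicate 2. In ∆GAG-BG against control vector, 0 became 2 without control vector replicate 1 or ∆GAG-BG replicate 1 (also with S534A replicate 2 left out), and 1 without control vector replicate 3 or with only these groups. Among the 4 groups, 4 became 7 without S534A replicate 3, 1 without S545A replicate 3 or with summed replicates, and 2 with limma-voom, without control vector replicate 2, S534A replicate 2 (alone or with ∆GAG-BG replicate 1), S545A replicate 1 or 2, or the 4 libraries. The causes were not tested.

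With the replicate number as a block, the count of chain genes under an adjusted p of 0.05 stayed at 0 in every comparison, and that at an unadjusted p of 0.05 went from 2 to 1 in S534A against control vector and from 4 to 2 among the 4 groups. For the 5 comparisons other than S545A against control vector, at least 1 of the 3 correlations of same-numbered libraries was under 0.1, so no pairing was assumed there. Correlations from 3 libraries a group cannot exclude a pairing. The block changed no other count by over 1.5 times.

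At the depth of these libraries COL4A3, COL3A1 and COL9A3 never exceeded 33, 31 and 21 counts, and a change in the 19 chain genes not tested was not detectable.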

Other observations

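HEYA8 cells also expressed receptors for collagen. ITGB1, the beta subunit of the collagen-binding integrins, was at 1017 to 1135 CPM over the 12 libraries and ITGA2, an alpha subunit that pairs with it, at 132 to 228 CPM. DDR2, a receptor tyrosine kinase that binds fibrillar collagen, was at 53.7 CPM in S534A replicate 2 and 116 to 206 CPM in the others. Of 10 receptor genes, 8 were tested, and 1 reached an unadjusted p of 0.05 in a comparison. This was MRC2, an endocytic collagen receptor, in S534A against ∆GAG-BG, where 2.99% of all genes did. It was at 66.0, 67.4 and 70.8 CPM in S534A and 101, 77.9 and 77.4 CPM in the libraries labelled ∆GAG-BG. The log2 fold change was -0.33 (SE 0.104, unadjusted p = 0.00821, adjusted p = 0.890, edgeR).

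Of 7 genes of collagen-cutting proteases, 4 were tested. MMP14, a membrane-bound collagenase, was at 654 CPM in S534A replicate 2 and 375 to 528 CPM in the others. MMP9, a gelatinase, was at 4.40 CPM in S534A replicate 2 and 0.182 to 1.59 CPM in the others. Its unadjusted p was 0.0426 in S534A against control vector (adjusted p = 0.871, edgeR), where 3.45% of all genes were under 0.05. PLOD2, a lysyl hydroxylase of collagen, was at 1011 CPM in S534A replicate 2 and 488 to 620 CPM in the others. No protease or receptor gene passed an adjusted p of 0.05 in any comparison (edgeR).

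FN1, which encodes the matrix protein fibronectin, was at 1035, 434 and 437 CPM in control vector, 1412, 830 and 896 CPM in ∆GAG-BG, 493, 321 and 430 CPM in S534A, and 651, 494 and 488 CPM in S545A. The libraries labelled ∆GAG-BG lay above all libraries of both single-site mutants. Over all genes, 5.66% did not overlap in the S534A comparison and 5.05% in the S545A comparison. The log2 fold changes of FN1 were -1.34 in S534A (SE 0.335, unadjusted p = 0.00200, adjusted p = 0.890) and -0.94 in S545A (SE 0.332, unadjusted p = 0.0156, edgeR). Of the libraries labelled ∆GAG-BG, 2 went against their label, and only replicate 1, at 1412 CPM, went with it. Replicates 2 and 3 labelled control vector, which also went against their label, were at 434 and 437 CPM. FN1 was not tested without these libraries. The mesenchymal markers (VIM, CDH2 and FN1) summed to 2966 to 4667 CPM. The fibroblast markers summed to 22 to 32.7 CPM and the leukocyte markers to 0.189 CPM or less.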
